A study of Mus musculus with 12 samples.

Results

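The mice were wild-type C57BL/6J, ate a purified control diet, and were exposed either to repeated closed-head impacts below the severity of mild traumatic brain injury or to a sham procedure. Cortical RNA was sequenced 6 months after injury, and injured mice were compared with sham mice on that diet across all expressed genes. The comparison uses 6 of the 12 libraries of the series, the 3 titled purified injured (replicates 2, 3 and 4) and the 3 titled purified sham (replicates 2, 3 and 4), chosen by their titles alone. The other 6 libraries come from mice on a cyclic, fish oil supplemented high-fat diet, 3 injured and 3 sham. They enter the estimate of spread and the closing comparison of the injury difference between the diets. All mice were wild type, and no age, sex or pooling of animals is given in the labels. The labels do not tie a library to a separate animal, so each p-value reflects variation among libraries, which may be technical.

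Long after a mild head injury the cortex can keep altered neuronal activity, altered inhibition, a changed vascular wall and low-grade innate immune signalling. Neuronal firing switches on immediate early genes within minutes through calcium, ERK kinase and cAMP signalling, and ERK in turn induces its own inhibitors. Type I interferon switches on antiviral genes through a STAT transcription factor complex, which binds the interferon-stimulated response element. Endothelial cells, pericytes and a basement membrane of collagens and laminins form the vessel wall, and the study's title concerns cerebrovascular metabolism and repair.

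The 6 libraries held 46362158 to 59733022 counts each, and mitochondrial transcripts took 4.99% to 7.12% of them. Slc17a7, the vesicular glutamate transporter of cortical excitatory neurons, stood at 597 to 1080 CPM (counts scaled to library size) in all 6. Single libraries also carried transcripts of neighbouring tissue. Injured replicate 3 held the olfactory bulb genes Cdhr1 at 522 CPM and Eomes at 91.1 CPM, against at most 16.7 and 0.28 CPM in the other 5, and had the lowest cortical neuron score. Sham replicate 3 held the choroid plexus gene Ttr at 434 CPM against at most 23.3 CPM in the other 5. Sham replicate 4 had the highest striatal, red blood cell and myelin scores, and injured replicate 4 the highest meningeal fibroblast and macrophage scores. A score here is the mean over a gene list of each gene's log2 CPM minus that gene's mean over the 6 libraries. The injured libraries were also less alike than the sham libraries. The median SD of log2 CPM over 19252 genes was 0.31 among injured and 0.188 among sham libraries, and 13583 genes (70.6%) varied more among the injured. Without injured replicate 3 the injured median was 0.223, against 0.141 to 0.166 among sham libraries with 1 of them left out. The first number of the library names is 4 or 5 in all injured and 7 or 10 in all sham libraries of this diet, so whatever it marks and the injury cannot be told apart.

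**Figure D1:**
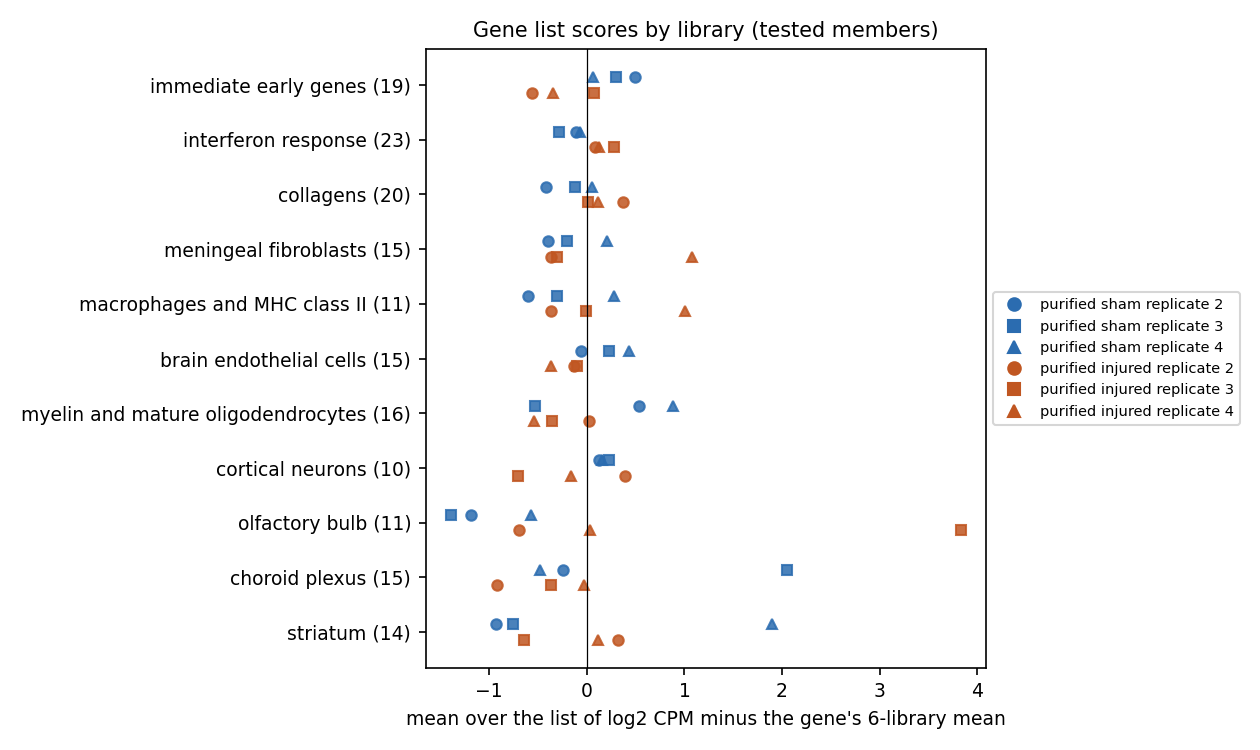
Scores of 11 gene lists (rows, with the number of tested members) in the 3 purified sham and 3 purified injured libraries, on the log2 scale relative to each gene's mean over the 6. Olfactory bulb genes stand out in injured replicate 3 (3.83), choroid plexus genes in sham replicate 3 (2.05), striatal genes in sham replicate 4 (1.90) and meningeal fibroblast genes in injured replicate 4 (1.08).

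No single gene passed the test: edgeR's quasi-likelihood test called 0 of 19252 genes (0.0%) at a Benjamini-Hochberg adjusted p under 0.05, with a lowest adjusted p of 0.763. By the other tools run, limma-voom called 0 genes and DESeq2 called 14. All values below are therefore differences that did not pass edgeR's test, given with their standard errors (SE) and unadjusted p. Over all genes 757 were higher (3.93%) and 494 lower (2.57%) at an unadjusted p under 0.05. The 3 injured libraries lay wholly above the 3 sham libraries for 948 genes (4.92%) and wholly below them for 1286 (6.68%). These 4 percentages are the background against which the counts of each gene list are to be read. The median log2 fold change of all genes was 0.003. Values by library are always in the order replicate 2, 3, 4.

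Activity-induced genes were lower in the injured libraries. Of 19 immediate early genes tested, 14 lay below 0 and the median log2 fold change was -0.68. Injured libraries lay wholly below sham for 10 of the 19, against 6.68% of all genes, and wholly above for 1. At an unadjusted p under 0.05 there were 5 lower members and 0 higher ones. The list median was between -0.79 and -0.57 whichever of the 6 libraries was left out. The list score itself overlapped, because injured replicate 3 (0.07) reached sham replicate 4 (0.06).

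Egr1, a zinc finger transcription factor induced by synaptic input, was at 557, 560 and 451 CPM in sham and at 231, 316 and 244 CPM in injured libraries. Every injured library was below every sham library, a log2 fold change of -0.99 ± 0.36 (SE, unadjusted p = 0.0192). Arc, whose protein acts at synapses to remove AMPA receptors, was at 371, 279 and 270 CPM in sham and 147, 162 and 111 CPM in injured libraries. The groups did not overlap, and the log2 fold change was -1.13 ± 0.43. Bdnf, the neurotrophin released by active neurons, was at 49.2, 52.5 and 44.4 CPM in sham against 30.2, 28.6 and 38.1 CPM in injured libraries. It too was lower in every injured library (-0.59 ± 0.20, unadjusted p = 0.0127). Fos, a subunit of the AP-1 transcription factor, was at 111, 85.9 and 63.4 CPM in sham and 32.9, 56.0 and 42.5 CPM in injured libraries. Its groups were separate although its log2 fold change of -0.99 ± 0.53 had an unadjusted p of 0.0902.

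The other members with separate groups showed the same order. Egr3 had a log2 fold change of -0.60 ± 0.26, Junb one of -0.88 ± 0.37 and the postsynaptic scaffold gene Homer1 one of -0.50 ± 0.23. The MAP kinase phosphatase gene Dusp1 stood at -0.79 ± 0.38, the antiproliferative gene Btg2 at -0.95 ± 0.46 and Ier2 at -0.87 ± 0.43. Jun, the partner of Fos in AP-1, went the other way, at 11.3, 12 and 10.1 CPM in sham and 14.6, 15.2 and 23 CPM in injured libraries. It was the single member above sham in every injured library (0.66 ± 0.31). Npas4, an activity-dependent factor of excitatory and inhibitory neurons, was at 64.2, 87.0 and 48.3 CPM in sham and 25.2, 51.5 and 28.5 CPM in injured libraries, where injured replicate 3 overlapped sham replicate 4.

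The feedback inhibitors of ERK signalling were listed after their values had been seen, because Dusp6 and Spry2 were among the 15 lower genes with the smallest p. Dusp6, the phosphatase that switches off ERK, was at 109, 108 and 93.0 CPM in sham and 61.9, 57.6 and 49.8 CPM in injured libraries. The log2 fold change was -0.87 ± 0.25 (unadjusted p = 0.00499), and it stayed between -0.94 and -0.79 with any 1 of the 6 libraries left out. Spry2, an inhibitor of receptor tyrosine kinase signalling, was at 47.6, 42.2 and 40.3 CPM in sham and 37.2, 28.1 and 29.3 CPM in injured libraries. Spred1, of the same family of inhibitors, was at 289, 330 and 297 CPM in sham and 257, 248 and 269 CPM in injured libraries. All 3 genes had separate groups. Among the 11 tested genes of this list 8 were below 0, with a median of -0.24.

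**Figure D2:**
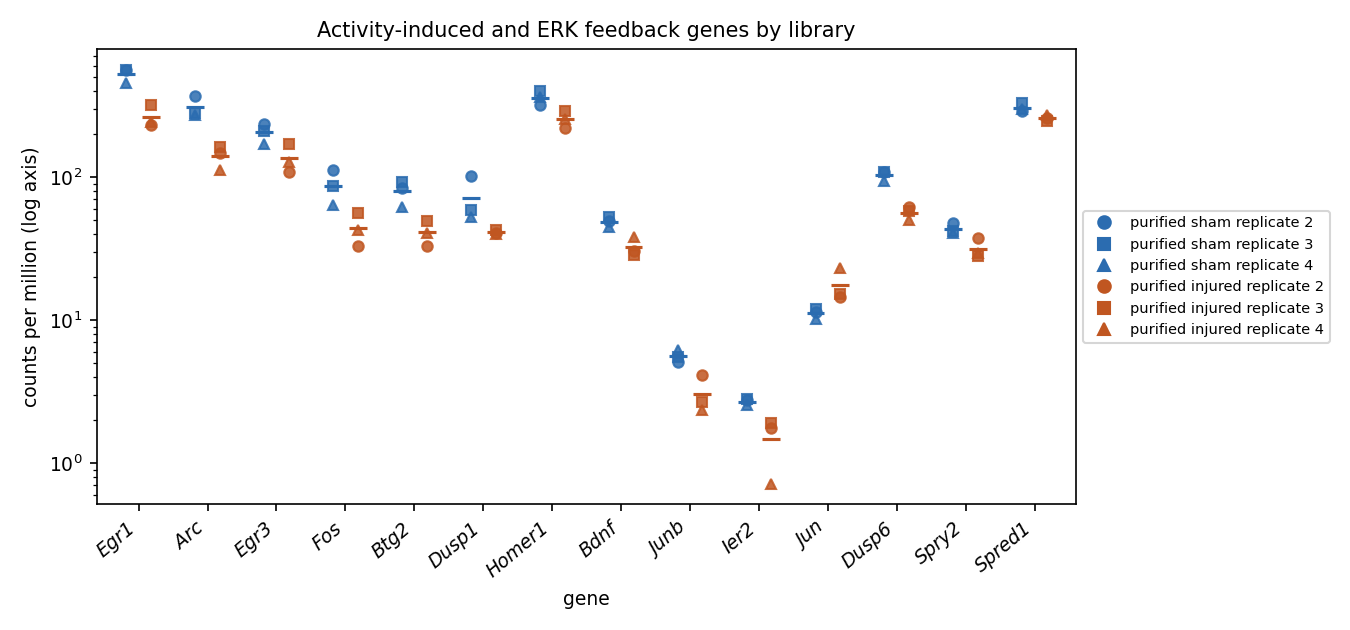
CPM (log axis) of 11 immediate early genes and 3 ERK feedback genes in each purified sham and purified injured library, with group means as bars. All genes but Jun are lower in each injured library than in each sham library, for example Egr1 at 231 to 316 against 451 to 560 CPM.

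Promoters of 15 of the 19 immediate early genes were in the RefSeq table (GRCm38.p6). Within the 250 bases before the start site, the cAMP response element TGACGTCA, which is the same on both strands and is bound by the activity-regulated factor CREB, was in 2 of the 15 (13.3%), against 1.77% of 27025 genes in the table. The windows around both matches are shown because both genes were lower in every injured library. Capitals mark the element. Dusp1 lies at chr17:26508558-26508665 (minus strand) and Btg2 at chr1:134079264-134079371 (minus strand).
Dusp1: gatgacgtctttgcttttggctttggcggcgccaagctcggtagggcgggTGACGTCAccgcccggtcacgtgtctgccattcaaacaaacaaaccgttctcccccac
Btg2: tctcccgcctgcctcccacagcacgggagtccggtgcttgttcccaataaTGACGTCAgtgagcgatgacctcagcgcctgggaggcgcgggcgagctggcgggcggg
A match describes these letters in this window and does not show binding.

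Subunits of the GABA-A receptor, the main inhibitory receptor of the cortex, differed in opposite directions. Gabrd (-0.52 ± 0.33) and Gabra4 (-0.22 ± 0.14), subunits of receptors outside synapses, had injured libraries wholly below sham, without an unadjusted p under 0.05. Gabra3, an alpha subunit expressed most in the young cortex, was at 190, 201 and 197 CPM in sham and 251, 243 and 277 CPM in injured libraries. Every injured library was above every sham library (0.39 ± 0.10, unadjusted p = 0.00252, chrX:72432681-72656848, minus strand, GRCm38). Gabra5, which makes extrasynaptic receptors, was at 70.1, 49.0 and 47.2 CPM in sham and 68.4, 112 and 96.2 CPM in injured libraries, where injured replicate 2 lay within the sham range (0.74 ± 0.25). Of the 14 GABA receptor genes 4 lay wholly below sham and 1 wholly above, and the median was -0.08, so the list as a whole stood near 0.

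Neurofilament genes, which encode the intermediate filaments of large axons, were lower together. Nefm was at 210, 195 and 217 CPM in sham and 139, 89.4 and 114 CPM in injured libraries. Nefl was at 402, 411 and 418 CPM in sham and 332, 202 and 304 CPM in injured libraries. In both, the injured libraries were all below sham and injured replicate 3 was lowest. Their log2 fold changes were -0.86 ± 0.31 and -0.56 ± 0.24, and those of Nefh and of Ina, which encodes alpha-internexin, were -0.54 ± 0.29 and -0.47 ± 0.19. All 4 genes had separate groups. Leaving out any 1 of the 6 libraries kept Nefl between -0.69 and -0.35 and Nefm between -1.02 and -0.70. The neuronal tubulin gene Tubb3 was at 181, 174 and 174 CPM in sham and 244, 225 and 197 CPM in injured libraries, above sham in each (0.33 ± 0.15). These 5 genes belong to a list of 17 with tau and amyloid genes, whose median was -0.01, with 4 members wholly below sham and 2 wholly above.

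Among ion channels, Scn1a, the sodium channel that fast-spiking interneurons depend on most, was at 324, 372 and 361 CPM in sham and 243, 194 and 180 CPM in injured libraries. The groups were separate and the log2 fold change was -0.77 ± 0.30 (unadjusted p = 0.0242). Scn7a, an atypical sodium channel that responds to extracellular sodium rather than voltage, was at 4.76, 3.77 and 4.76 CPM in sham and 13.2, 14 and 10.1 CPM in injured libraries. It had the smallest p of all genes that met the naming rule (1.49 ± 0.30, unadjusted p = 0.000386, adjusted p = 0.763 by edgeR, chr2:66673425-66784914, minus strand). The calcium channel subunit gene Cacna2d3 was at -0.75 ± 0.28. The sodium, potassium and calcium channel lists had medians of -0.12 (11 genes), -0.25 (25 genes) and 0.10 (15 genes). Of the 25 potassium channel genes 17 were below 0 and 4 lay wholly below sham.

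Pvalb, the calcium-binding protein that marks fast-spiking interneurons, was at 74.9, 41.4 and 56.3 CPM in sham and 27.1, 17.7 and 15.9 CPM in injured libraries. No injured library reached a sham library (-1.51 ± 0.61, unadjusted p = 0.0307), and the estimate was between -1.77 and -1.27 with any 1 library left out. In bulk tissue, fewer cells of a type and less RNA per cell cannot be told apart. Lamp5, which marks an upper-layer and neurogliaform population, was at 270, 259 and 237 CPM in sham and 176, 106 and 97.7 CPM in injured libraries (-1.01 ± 0.46), again without overlap. The upper-layer transcription factor Pou3f3 was at 92.9, 93.8 and 92.9 CPM in sham and 65.1, 43.5 and 49.3 CPM in injured libraries (-0.82 ± 0.21, unadjusted p = 0.00189). The upper-layer list nevertheless had a median of -0.15 over 12 genes, the deep-layer list one of 0.07 over 13 and the interneuron list one of 0.13 over 18. Other members of these lists went the other way. At an unadjusted p under 0.05, 2 interneuron genes were higher and 1, Pvalb, was lower. Of the 18 interneuron genes 2 lay wholly above sham and 2 wholly below. In the upper-layer list 1 gene was higher and 1, Lamp5, was lower at that p, with 0 wholly above sham and 2 wholly below. Injured replicates 3 and 4 had lower cortical neuron scores (-0.71 and -0.16) than the 3 sham libraries (0.12 to 0.23), and injured replicate 2 a higher one (0.39). The part of the cortical neuron score in these neuronal differences was not tested. Without injured replicate 3, Nefl was at -0.35, Cacna2d3 at -0.42 and Gabra4 at -0.06. Each of the neuronal genes named here kept its sign without that library. Many of them were picked for a small p in these same libraries, so the kept sign is no independent support.

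Some excitatory receptor genes were higher in the injured libraries. Gria1, an AMPA receptor subunit, was at 355, 410 and 402 CPM in sham and 452, 652 and 532 CPM in injured libraries, above sham in each (0.49 ± 0.19). Grik3, a kainate receptor subunit, was at 118, 120 and 101 CPM in sham and 169, 162 and 121 CPM in injured libraries (0.41 ± 0.15). Both had separate groups, though by a narrow margin for Grik3 in injured replicate 4. The glutamate receptor list had a median of 0.14 over 22 genes, and 0.07 without injured replicate 3, with 3 members wholly above sham and 1 wholly below. At an unadjusted p under 0.05, 3 members were higher and 0 lower, against 3.93% and 2.57% of all genes. The 22 synapse genes had a median of -0.02. The presynaptic adhesion gene Nrxn2 was the one synapse gene higher at an unadjusted p under 0.05 (0.51 ± 0.21). The serotonin receptor gene Htr5a (-0.31 ± 0.14) and the muscarinic receptor gene Chrm3 (-0.65 ± 0.29) were lower, in lists whose medians were -0.06 (11 genes) and -0.01 (12 genes).

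Tph2, the enzyme that makes serotonin in raphe neurons, was at 3.03, 2.70 and 2.21 CPM in sham and 0.906, 0.469 and 0.82 CPM in injured libraries. Its highest injured value was below its lowest sham value (-1.85 ± 0.42, unadjusted p = 0.000861, chr10:115078641-115185022, minus strand). Dbh, the enzyme that makes noradrenaline in the brainstem, was at 0.116, 0.0851 and 0.107 CPM in sham and 0.512, 0.265 and 0.52 CPM in injured libraries (2.05 ± 0.53). Both enzymes act in cells whose bodies lie outside the cortex, and both transcripts were scarce. Dopaminergic genes of the same list were highest in injured replicate 3, such as Th at 107 CPM, the library with olfactory bulb transcripts.

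**Figure D3:**
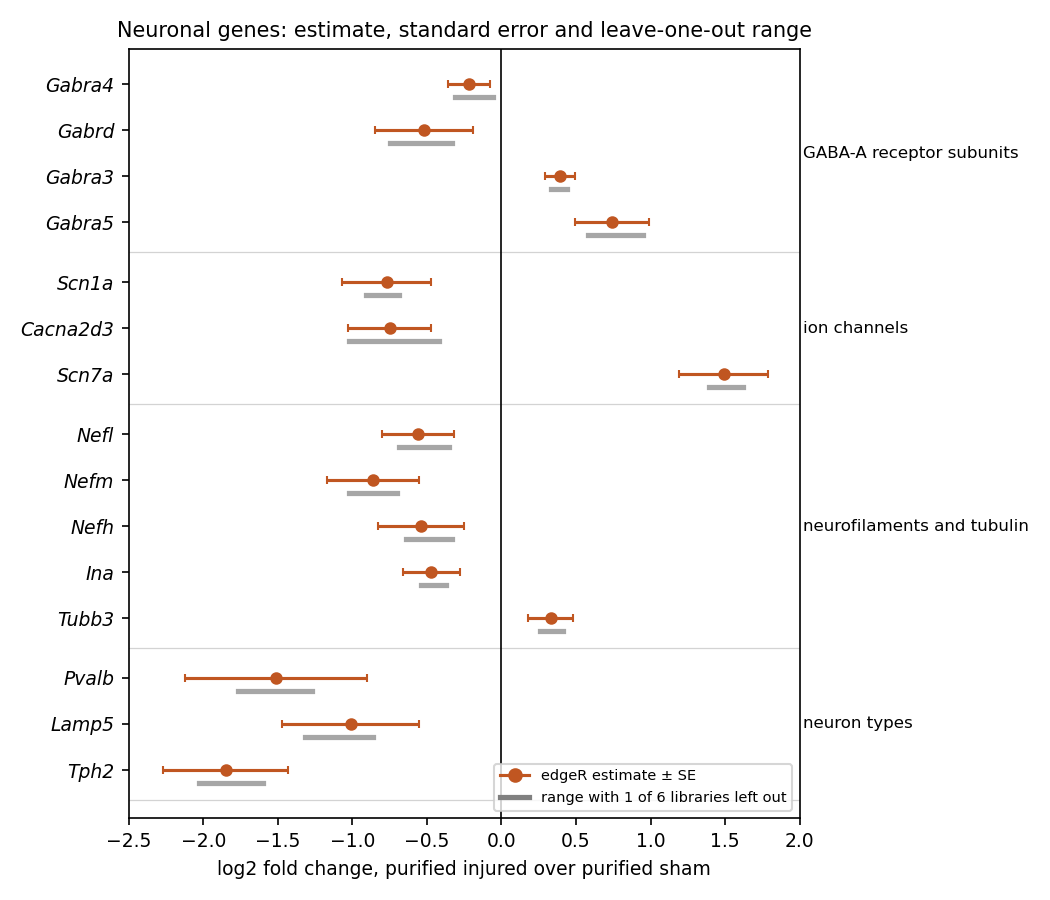
Log2 fold change of purified injured over purified sham with its standard error (points and bars) for 15 receptor, ion channel, cytoskeletal and neuron type genes. The range when 1 of the 6 libraries is left out is in grey. Gabra3, Gabra5, Scn7a and Tubb3 lie above 0 and the other 11 below, and no leave-one-out range crosses 0.

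Interferon-stimulated genes were higher in the injured libraries, at low levels. Of 23 tested, 19 were above 0, and injured libraries lay wholly above sham for 8, against 4.92% of all genes. The exception in the other direction was 1 gene wholly below. The median log2 fold change was 0.21, 4 members were higher at an unadjusted p under 0.05 and 0 lower, and the list score separated the groups, from -0.29 to -0.07 in sham and from 0.08 to 0.28 in injured libraries.

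Oasl2, an antiviral protein of the oligoadenylate synthetase family, was at 3.45, 2.72 and 3.48 CPM in sham and 6.03, 6.42 and 5.42 CPM in injured libraries. All injured values lay well above sham (0.89 ± 0.28, unadjusted p = 0.00822). Isg15, the ubiquitin-like protein attached to targets during antiviral responses, was at 1.09, 0.681 and 0.856 CPM in sham and 1.14, 2.14 and 2.04 CPM in injured libraries, where injured replicate 2 only just exceeded sham replicate 2 (1.01 ± 0.36). Ifit3, which binds viral RNA with its relatives, was at 8.83, 5.41 and 8.47 CPM in sham and 9.16, 14.3 and 13.4 CPM in injured libraries (0.70 ± 0.27). Injured replicate 2 was again the closest to sham. Usp18, which removes Isg15 from proteins and dampens interferon signalling, was at 0.926, 0.596 and 0.784 CPM in sham and 1.30, 1.26 and 1.20 CPM in injured libraries (0.70 ± 0.30).

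Ifit1 (0.71 ± 0.35), Mx1 (0.94 ± 0.51) and Ifi44 (1.05 ± 0.50) also had separate groups without an unadjusted p under 0.05. The RNA sensors went apart. Ddx58, which encodes RIG-I, was at 6.41, 6.00 and 5.99 CPM in sham and 6.44, 8.60 and 6.96 CPM in injured libraries (0.26 ± 0.15). Ifih1, which encodes MDA5, was at 7.82, 9.43 and 8.93 CPM in sham and 6.89, 6.68 and 7.38 CPM in injured libraries, the one member wholly below sham (-0.32 ± 0.25). Genes of MHC class I presentation, which interferon also induces, had a median of -0.05 over 12 genes with 0 wholly above sham.

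**Figure D4:**
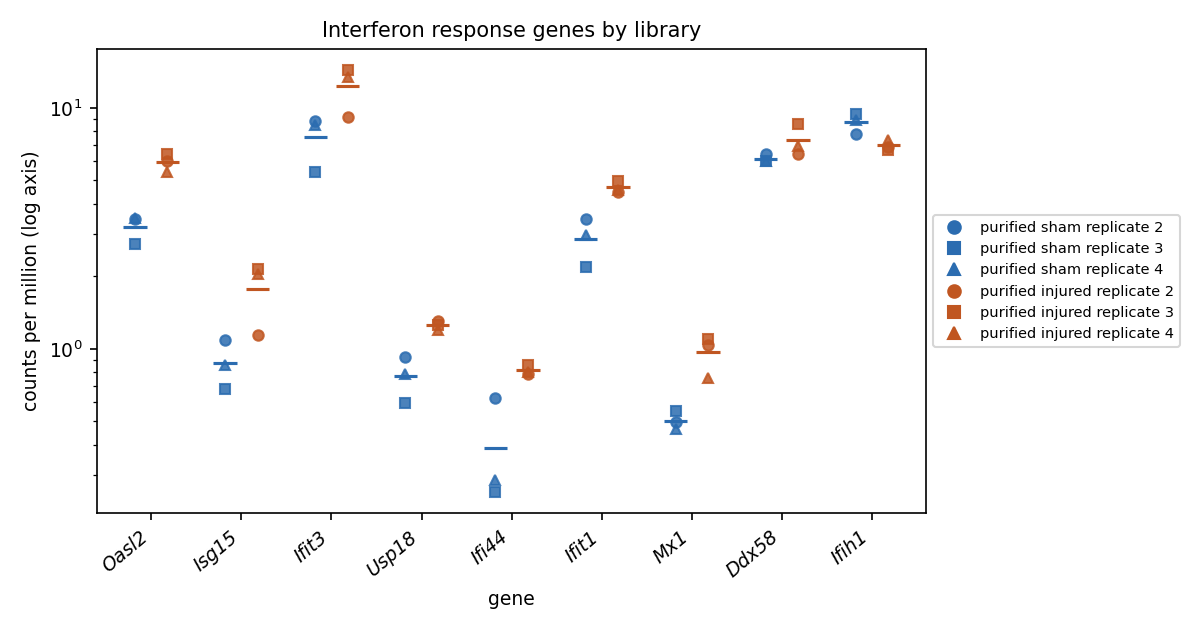
CPM (log axis) of the 9 interferon response genes whose purified sham and purified injured libraries do not overlap, by library, with group means as bars. Ifih1 is lower and the other 8 are higher in each injured library, for example Oasl2 at 5.42 to 6.42 against 2.72 to 3.48 CPM.

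Promoters of 17 of the 23 interferon response genes were in the RefSeq table. The interferon-stimulated response element, searched on both strands as GAAA followed, after any 2 bases, by another GAAA within the 250 bases before the start site, was in 7 of the 17 (41.2%), against 3.46% of 27025 genes in the table. Isg15, Ifit1 and Ifit3 are shown because their libraries separated the groups and their promoters hold more than 1 match. Capitals mark the matches, which overlap in Isg15. The windows are Isg15 at chr4:156200825-156200946 (minus strand), Ifit1 at chr19:34640735-34640863 (plus strand) and Ifit3 at chr19:34583323-34583466 (plus strand).
Isg15: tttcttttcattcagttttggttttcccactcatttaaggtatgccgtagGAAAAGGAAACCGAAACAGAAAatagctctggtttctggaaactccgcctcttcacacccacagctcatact
Ifit1: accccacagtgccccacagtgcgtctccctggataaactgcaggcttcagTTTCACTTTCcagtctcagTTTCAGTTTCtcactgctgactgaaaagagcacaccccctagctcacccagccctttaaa
Ifit3: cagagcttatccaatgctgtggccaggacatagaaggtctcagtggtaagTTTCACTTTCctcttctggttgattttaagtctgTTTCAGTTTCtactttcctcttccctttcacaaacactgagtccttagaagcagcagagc
Of the other 4 genes with a match, Stat2, Oas1a, Rsad2 and Bst2, none had injured libraries wholly above sham.

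Collagen genes tended to be higher after injury. Of 20 tested, 16 were above 0 with a median of 0.53, 4 were higher at an unadjusted p under 0.05 and 2 lay wholly above sham. Col12a1, a collagen that links fibrils, was at 15, 11.3 and 12.9 CPM in sham and 40.1, 21.1 and 20.7 CPM in injured libraries. Each injured library was above sham, with replicate 2 highest (1.06 ± 0.26, unadjusted p = 0.00175, chr9:79598991-79718831, minus strand). Col6a1, a chain of the microfibrillar collagen around vessels, was at 31.5, 41.5 and 51.5 CPM in sham and 116, 93.8 and 39.5 CPM in injured libraries, so injured replicate 4 lay within the sham range (1.00 ± 0.34). Col16a1 was at 5.54, 6.49 and 8.15 CPM in sham and 17.0, 8.97 and 8.52 CPM in injured libraries, wholly above sham by a narrow margin in replicate 4 (0.77 ± 0.30). Col5a2 was at 1.03 ± 0.37, with injured replicate 4 below sham replicate 4.

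Fibroblast and collagen scores ran in the same order over the sham libraries and in different orders over the injured ones, and the lists share Col1a1, Col1a2 and Col3a1. The part of fibroblast content in the collagen difference was not tested. The score of 15 meningeal fibroblast genes was 1.08 in injured replicate 4 and -0.37 and -0.31 in injured replicates 2 and 3, against -0.40 to 0.21 in sham, while the collagen score was highest in injured replicate 2 (0.37). Dcn, which encodes the fibroblast proteoglycan decorin, was at 11, 8.49 and 16.6 CPM in sham and 7.01, 16.3 and 93.1 CPM in injured libraries. The fibroblast median was 0.43 with all libraries and -0.11 without injured replicate 4, while the collagen median was 0.40 without it. Macrophage and MHC class II genes showed the dependence of the fibroblast list, with all 11 members above 0 at a median of 0.49, and -0.02 without injured replicate 4. Of the basement membrane genes, Lamb1, a laminin chain, was at 8.63, 8.60 and 12.5 CPM in sham and 16.6, 13.1 and 28.5 CPM in injured libraries. Its groups were separate (0.97 ± 0.41, and 0.58 without injured replicate 4). Nid1, which links laminin to collagen, was at 3.65, 5.85 and 7.88 CPM in sham and 5.67, 23.8 and 10.8 CPM in injured libraries. Injured replicate 2 lay within the sham range, and the 1.21 ± 0.48 was 0.52 without injured replicate 3. The 14 genes of that list had a median of 0.23, and 0.10 without sham replicate 2. Spon1, which encodes the secreted matrix protein F-spondin, was at 66.6, 52.7 and 52.3 CPM in sham and 96.6, 122 and 101 CPM in injured libraries, wholly above sham (0.90 ± 0.23). The 21 matrix and remodelling genes had a median of 0.38, and 0.17 without injured replicate 3, with 0 at an unadjusted p under 0.05.

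Endothelial genes were lower in the injured libraries. Of 15 tested, 14 were below 0 with a median of -0.37, 5 were lower at an unadjusted p under 0.05 against 2.57% of all genes, and 4 lay wholly below sham. Flt1, the decoy receptor for vascular endothelial growth factor, was at 44.4, 56.1 and 57.7 CPM in sham and 43.0, 42.8 and 36.9 CPM in injured libraries. The injured values were all below sham, by little for sham replicate 2 (-0.37 ± 0.16). Ly6a, a surface protein of brain endothelium in this strain, was at 14.2, 20.6 and 27.0 CPM in sham and 11.1, 12.5 and 11.8 CPM in injured libraries (-0.80 ± 0.28). Vwf, the von Willebrand factor stored by endothelial cells, was at 8.98, 20.8 and 33.4 CPM in sham and 10, 6.87 and 10.8 CPM in injured libraries. Its sham libraries spread widely, and the estimate of -1.19 ± 0.36 was -0.68 at its smallest with 1 library left out. Ly6c1 (-0.72 ± 0.23), the angiopoietin receptor gene Tek (-0.42 ± 0.18) and the adhesion gene Esam (-0.56 ± 0.30) were lower as well, and the tight junction gene Cldn5 was at -0.49 ± 0.29 with overlapping groups.

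Sham replicate 4 carried the highest endothelial score (0.43) together with the highest red blood cell score (1.01), and the endothelial median was -0.25 without it. The part of blood and vessel content in that library was not tested. Pericyte genes showed a similar pattern in 2 members. Abcc9, a potassium channel subunit of pericytes, was at 13.1, 14.9 and 16.2 CPM in sham and 11.7, 8.01 and 8 CPM in injured libraries (-0.67 ± 0.21, unadjusted p = 0.00746). Rgs5, a regulator of G-protein signalling and a pericyte marker, was at 104, 109 and 118 CPM in sham and 84.1, 82.9 and 68.4 CPM in injured libraries (-0.49 ± 0.19). Both had separate groups, yet the 13 pericyte and smooth muscle genes had a median of 0.01.

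Transport across the barrier differed little. Slc2a1, the glucose transporter of brain endothelium, was at 49.6, 48.3 and 51.5 CPM in sham and 49.3, 48.7 and 41.7 CPM in injured libraries (-0.10 ± 0.09). The 15 barrier transport genes had a median of -0.08. Tfrc, the transferrin receptor that carries iron across the barrier, was the one member lower at an unadjusted p under 0.05, at 190, 186 and 221 CPM in sham and 176, 157 and 148 CPM in injured libraries (-0.32 ± 0.14). Angpt1, the ligand of Tek, was at 2.94, 2.60 and 5.69 CPM in sham and 9.43, 13.1 and 23.8 CPM in injured libraries, wholly above sham (2.05 ± 0.84). Ligand and receptor thus stood on opposite sides of 0, in an angiogenesis list of 21 genes with a median of 0.23. The urokinase gene Plau, a protease of matrix and fibrin breakdown, was at 3.12, 4.87 and 2.83 CPM in sham and 1.81, 1.39 and 2.30 CPM in injured libraries (-0.98 ± 0.40), in a list of 19 TGF-beta and fibrinolysis genes with a median of 0.22. The 18 integrin genes had a median of -0.04.

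Myelin genes were all below 0, 16 of 16 with a median of -0.68, but none separated the groups and 0 had an unadjusted p under 0.05. Mbp, myelin basic protein, was at 1390, 708 and 2210 CPM in sham and 1180, 775 and 732 CPM in injured libraries. Sham replicate 3 lay below all 3 injured libraries, and sham replicates 2 and 4 above them. Without sham replicate 4, which also held the most striatal transcript, the median was -0.34. Oligodendrocyte precursor genes had a median of 0.18 over 12 genes, with 0 at an unadjusted p under 0.05.

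Astrocyte and microglial identity genes had medians of 0.05 over 15 astrocyte genes, 0.21 over 12 homeostatic microglia genes and 0.13 over 16 disease-associated microglia genes. In that order 8, 11 and 13 members were above 0, against 50.6% of all genes. With 1 of the 6 libraries left out the homeostatic median was between 0.08 and 0.44, and the disease-associated one between 0.02 and 0.30. Sox9, a transcription factor of astrocytes, was at 23.7, 23.8 and 23.7 CPM in sham and 19.9, 19.9 and 18.4 CPM in injured libraries, a small and uniform difference (-0.29 ± 0.10, unadjusted p = 0.0128). The microglial receptor gene P2ry12 was at 0.34 ± 0.16 with overlapping groups. Reactive astrocyte genes had a median of 0.48 over 15, and 0.17 without injured replicate 3. Serpina3n, a protease inhibitor of reactive astrocytes, was at 8.58, 7.92 and 13.8 CPM in sham and 16.3, 33.3 and 12.7 CPM in injured libraries, with injured replicate 4 inside the sham range (1.04 ± 0.37). Aspg was at 1.22, 1.21 and 1.44 CPM in sham and 2.54, 2.59 and 1.78 CPM in injured libraries, wholly above sham (0.83 ± 0.26). Lcn2, the iron-binding lipocalin of reactive astrocytes and neutrophils, went the other way, at 0.0992, 3.02 and 3.48 CPM in sham and 0.433, 0.326 and 0.08 CPM in injured libraries. Sham replicate 2 was as low as the injured libraries, so the -2.96 ± 0.99 rests on sham replicates 3 and 4.

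The proteases that start the classical complement cascade were lower. C1ra was at 2.74, 4.34 and 3.21 CPM in sham and 1.30, 0.53 and 0.76 CPM in injured libraries (-1.99 ± 0.59, unadjusted p = 0.00608). C1s1, its substrate and partner, was at 2.30, 3.32 and 3.08 CPM in sham and 1.69, 0.734 and 0.76 CPM in injured libraries (-1.45 ± 0.52). Both had separate groups. C4b, which C1s cleaves, was at 20, 17.0 and 31.0 CPM in sham and 25.0, 40.8 and 46.8 CPM in injured libraries (0.73 ± 0.36), and the 14 complement genes had a median of 0.10. Cytokine and chemokine genes had a median of -0.06 over 15, with 0 at an unadjusted p under 0.05, and the 8 leukocyte genes tested one of -0.22.

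Several transcriptional regulators of the clock were lower. Of 17 clock genes 14 were below 0 at a median of -0.14, and 4 lay wholly below sham. Arntl, which encodes the core activator BMAL1, was at 35.7, 53.8 and 44.0 CPM in sham and 31.6, 28.3 and 33.7 CPM in injured libraries (-0.51 ± 0.16, unadjusted p = 0.0066). Rora, the nuclear receptor that drives Arntl, was at 154, 196 and 158 CPM in sham and 92.9, 114 and 123 CPM in injured libraries (-0.62 ± 0.19). Bhlhe40 (-0.40 ± 0.17), which is also induced by neuronal activity, and Hlf (-0.66 ± 0.31) completed the 4. The E-box CACGTG was in 5 of the 15 clock promoters in the RefSeq table (33.3%), against 6.86% of genes, namely Per1, Cry1, Tef, Ciart and Bhlhe41. None of the 4 genes wholly below sham is among those 5. The time of day of tissue collection is not given in the sources used here.

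Plin4, a lipid droplet coat protein and glucocorticoid target, was at 5.47, 4.92 and 9.21 CPM in sham and 2.86, 1.28 and 2.90 CPM in injured libraries. All injured values were below sham (-1.48 ± 0.35, unadjusted p = 0.00123, chr17:56100591-56109803, minus strand). The glucocorticoid-induced factor gene Klf9 was at 191, 198 and 191 CPM in sham and 163, 158 and 134 CPM in injured libraries (-0.35 ± 0.15). The 15 glucocorticoid response genes had a median of -0.11, with 4 wholly below sham. Genes of fatty acid synthesis differed by small, even amounts. Me1, which supplies NADPH, was at 52.1, 43.7 and 50.1 CPM in sham and 57.8, 59.9 and 66.8 CPM in injured libraries (0.34 ± 0.11), and Acaca, the carboxylase that commits carbon to fatty acids, was at 89.8, 99.9 and 90.6 CPM in sham and 108, 107 and 112 CPM in injured libraries (0.22 ± 0.09). Acsl3, which activates fatty acids for storage, was at 237, 232 and 267 CPM in sham and 192, 199 and 213 CPM in injured libraries (-0.29 ± 0.11). All 3 had separate groups. The lipogenesis list had a median of 0.22 over 16 and fatty acid oxidation one of 0.14 over 20, which were 0.09 and -0.02 without injured replicate 3. Cholesterol synthesis had one of 0.16 over 17 with 15 above 0, which was 0.03 without sham replicate 3 and 0.31 without injured replicate 3. The perilipin list, assembled after values were seen, held Plin4 as the one member of 4 below 0.

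In mitochondria, Mcub, the subunit that restrains the calcium uniporter, was at 0.264, 0.255 and 0.356 CPM in sham and 0.748, 4.83 and 1.28 CPM in injured libraries. All injured values were above sham, with replicate 3 far above the others (2.96 ± 0.68, and 1.80 without it). Mcu, the pore itself, was at 27.7, 25.1 and 26.3 CPM in sham and 30.0, 38.7 and 29.0 CPM in injured libraries (0.31 ± 0.14). The mitochondrial transfer RNA for threonine, mt-Tt, was at 3.88, 5.51 and 7.56 CPM in sham and 1.58, 2.30 and 2.36 CPM in injured libraries (-1.44 ± 0.30, unadjusted p = 0.000446). The complex I messenger mt-Nd3 was at 23.2, 35.1 and 49.0 CPM in sham and 12.1, 17.7 and 23.2 CPM in injured libraries (-1.02 ± 0.28). Of 9 mitochondrial transfer RNAs tested, a list made after values were seen, 8 were below 0 and 1 lay wholly below sham. Their median was -0.47, and -0.24 without injured replicate 3. The 13 mitochondrial messengers had a median of -0.10, and 0.08 without sham replicate 4. Nuclear-encoded complex I genes were below 0 in 20 of 22 cases by small amounts, with a median of -0.10 and 0 at an unadjusted p under 0.05.

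Further genes with small p-values belong to no list. Usp46, a deubiquitinase of neurons, was at 126, 120 and 140 CPM in sham and 173, 222 and 184 CPM in injured libraries (0.58 ± 0.14). Nfya, a subunit of the CCAAT-binding factor NF-Y, was at 16.6, 17.0 and 16.1 CPM in sham and 23.5, 24.6 and 22.3 CPM in injured libraries (0.50 ± 0.12). Dscaml1, a neuronal adhesion molecule, was at 26.9, 30.9 and 27.7 CPM in sham and 42.5, 44.6 and 38.1 CPM in injured libraries (0.55 ± 0.14). These 3 were even within each group and wholly above sham. Ddah2, which encodes an enzyme that breaks down an inhibitor of nitric oxide synthase, was at 1.39, 1 and 1.62 CPM in sham and 3.29, 3.79 and 2.80 CPM in injured libraries (1.30 ± 0.32), again without overlap. Tmem40 was at 2.30 ± 0.58, and at 1.61 at its smallest with 1 library left out. Zfp423, a zinc finger transcription factor, was at 1.26 ± 0.32, Lmo1, a transcriptional cofactor, at 1.32 ± 0.31, Vwa5b1 at 0.92 ± 0.19 and Neb, which encodes the actin-binding protein nebulin, at 2.12 ± 0.51 (1.30 without injured replicate 3). On the lower side, Sntb2, which encodes a syntrophin of the dystrophin complex, was at 57.7, 75.0 and 57.8 CPM in sham and 44.1, 34.9 and 38.3 CPM in injured libraries (-0.70 ± 0.14, unadjusted p = 0.000425). Sptssb, a subunit of serine palmitoyltransferase in sphingolipid synthesis, was at 4.38, 3.30 and 4.14 CPM in sham and 1.79, 1.47 and 2.30 CPM in injured libraries (-1.09 ± 0.28). The sialyltransferase gene St3gal6 (-0.50 ± 0.14), the crosslink repair gene Dclre1a (-0.90 ± 0.25), the contactin gene Cntn3 (-0.86 ± 0.24) and the proline dehydrogenase gene Prodh (-0.60 ± 0.17) were lower too, each without overlap, as was Cldn34c1 (-0.74 ± 0.20), a claudin gene with close copies among which reads may be split.

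Whether the injury difference on the purified diet differed from that on the fish oil diet was tested as an interaction, in which the diets share no libraries. It passed for 0 of 19252 genes (0.0%, lowest adjusted p = 0.82 by edgeR), and 1108 genes (5.76%) had an unadjusted p under 0.05. For the interaction limma-voom called 0 genes and DESeq2 called 21. Among all members of the lists, Plin4 had the smallest interaction p. It was at 1.09 ± 0.35 after injury on the fish oil diet against -1.48 ± 0.35 on the purified diet (unadjusted p = 0.000235 and adjusted p = 0.82 for the interaction, by edgeR). The sham groups did not start from the same level. Plin4 was at 2.83, 1.94 and 1.86 CPM in fish oil sham and 5.47, 4.92 and 9.21 CPM in purified sham libraries. It was at 4.09, 4.3 and 5.7 CPM in fish oil injured and 2.86, 1.28 and 2.9 CPM in purified injured libraries. The next 4 list members, F5, Folr1, Slc4a5 and Cldn2, are choroid plexus genes, at log2 fold changes of 4.94 to 5.85 on the fish oil diet and -3.48 to -1.49 on the purified diet. Fish oil injured replicates 3 and 4 carried choroid plexus transcript, with F5 at 47.6 and 49.7 CPM against 1.08 to 1.16 CPM in fish oil sham libraries. On the purified diet sham replicate 3 was the highest library for all 4 genes, and with 1 library left out the estimates nearest to 0 were -0.06 for F5, -0.71 for Folr1, -0.73 for Slc4a5 and -1.03 for Cldn2.

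The remaining genes compared between the diets were picked after their values had been seen. Of the 19 immediate early genes, 13 had opposite signs on the 2 diets and 6 the same sign, among them Junb (-0.17 on the fish oil diet) and Btg2 (-0.35). Homer1 was at 0.87 ± 0.23 on the fish oil diet (unadjusted p = 0.00146 for the interaction, by edgeR). Bdnf was at 0.60 ± 0.20 (unadjusted p = 0.00132) and Egr3 at 0.65 ± 0.26 (unadjusted p = 0.00506). The 19 immediate early genes had a median of 0.31 on the fish oil diet against -0.68 on the purified diet. The list scores of injured and sham libraries overlapped on the fish oil diet, from -0.99 to 0.59 in injured and from -0.67 to 0.10 in sham libraries. These scores are relative to each gene's mean over all 12 libraries. On that scale the purified sham libraries were at 0.7, 0.52 and 0.27 and the purified injured ones at -0.35, 0.28 and -0.14. The sham groups of the 2 diets thus also differed in score, which was not tested. Oasl2 was at -0.71 ± 0.28 on the fish oil diet (unadjusted p = 0.00175 for the interaction, by edgeR). The 23 interferon genes had a median of -0.20 there against 0.21. Collagen genes had medians of -0.41 and 0.53 on the fish oil and purified diets. Scn1a was at 0.34 ± 0.30 on the fish oil diet, with unadjusted p = 0.0219 for the interaction, by edgeR. None of these interactions passed adjustment, and the lists themselves were not tested for a difference.

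**Figure D5:**
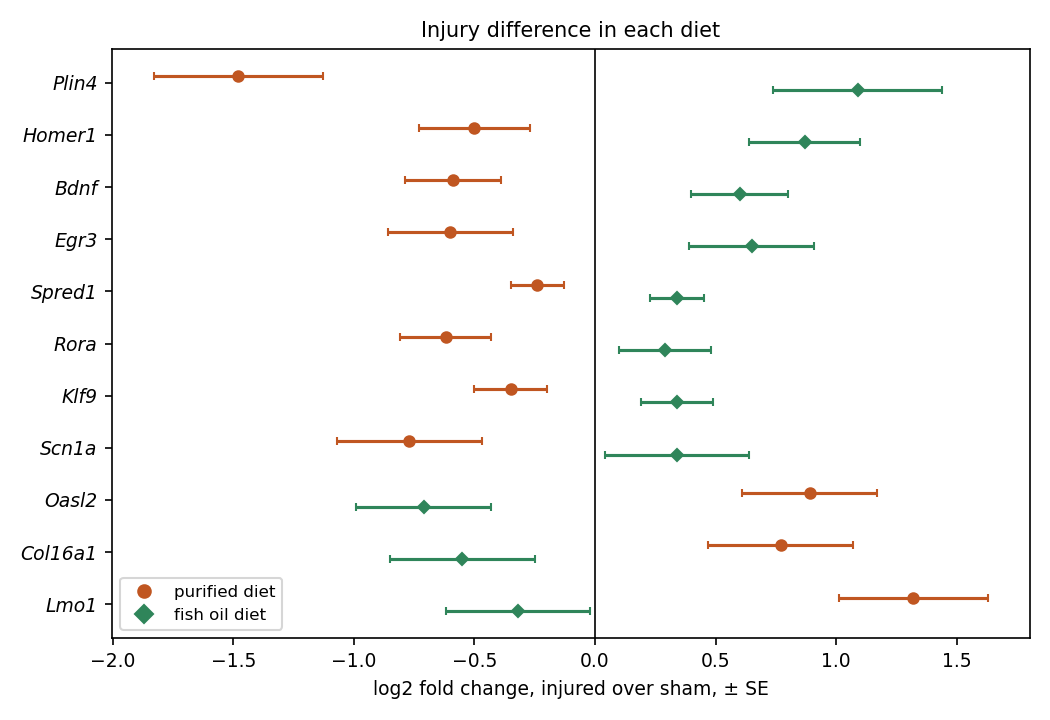
Log2 fold change of injured over sham with its standard error for 11 genes on the purified diet (circles) and on the fish oil diet (diamonds). All 11 genes lie on opposite sides of 0 in the 2 diets, and all but Plin4 were picked for this after their values were seen, so the picture is a description.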

How the data were processed

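Read counts were deposited by the authors as 1 table of whole numbers, genes by libraries, without normalization. The submitters' processing notes name STAR 2.5.2a, featureCounts 1.4.3-p1 and mm10. Which annotation release and strand setting were used is not given in the sources used here, and overlapping, antisense and paralogous genes may share reads. The table held 20514 values of 2 against 11222 values of 1, so both mates of a pair may have been counted.

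Of 53379 genes, 53274 matched a GENCODE M21 symbol without version, and positions are from that release on GRCm38. The filterByExpr filter (minimum count 10) kept 19252 genes. The quasi-likelihood test of edgeR 4.0.16 (TMM factors, robust glmQLFit, then glmQLFTest) used all 12 libraries and 4 group means. P-values were adjusted by Benjamini-Hochberg over all 19252 genes (threshold 0.05), and SEs were derived from the F statistic. CPM uses the same factors, and log2 CPM a prior count of 2. The biological coefficient of variation was 0.289. No pair of replicates was alike within sampling noise, as the same library sequenced again would be, and each library was counted once. This does not show that the libraries come from separate animals.

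Lists were described by counts and medians and not tested. The comparison, lists and tests were chosen with earlier results of these data known, and 3 lists were added after values were seen. Named genes are the 15 higher and 15 lower with the smallest p at a mean of at least 1 CPM, up to 4 members per list, further members that define a cell type or complex, and the 5 list members with the smallest interaction p. Some genes meeting these criteria are not reported here. In simulated counts for the 19252 genes, the injury test on the purified diet found 58 of 100 genes set to change 2-fold, 94 of 100 set to change 4-fold, and 6 unchanged genes. The interaction test found 17 of 100, 78 of 100 and 9 unchanged genes. The changed genes all had a mean of at least 1 CPM. Each gene was simulated with the same spread in every group, whereas the measured injured libraries varied more than the sham libraries. Promoter sequences are from RefSeq (GRCm38.p6). Alternatives were RLE and upper-quartile factors, DESeq2 1.42.0, limma-voom (limma 3.58.1) in 3 forms, other filters, the compared groups alone, a replicate block, tissue scores as covariates, a threshold of 0.10 and left-out libraries.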

Additional observations from a re-analysis of the deposited data

How the results depend on the processing

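For injury on purified diet, the count of genes called was 0 in every alternative except DESeq2, which called 14 (9 higher, 5 lower), among them Scn7a, mt-Tt, Vwa5b1, Mcub, Neb, Tph2, Sntb2, Lmo1 and Plin4. The other genes it called are not named here, and some of them had larger fold changes than any named one. For the diet by injury interaction it was 0 except with DESeq2, which called 21. With 1 of the 12 libraries left out both counts ranged from 0 to 0, and the lowest adjusted p for injury by edgeR was 0.0666, without purified injured replicate 3. Genes with an unadjusted p under 0.05 numbered 1251, against 806 without purified sham replicate 2, 686 without purified sham replicate 3, 2115 without purified injured replicate 2, 614 without purified injured replicate 3 and purified sham replicate 3, and 1963 with limma-voom when libraries with the same leading number were modelled as correlated. A set of 110 genes, which holds those given a fold change in the text apart from the 4 choroid plexus genes compared between diets, kept their direction in all 25 alternative fits, where a gene was tested. A value that rounded to 0 was not counted as reversed. The fits reuse the same libraries, and many of the genes were picked for a small p in them. The kept direction is therefore no independent support. Of 64 list medians, 33 took both signs over the fits. The striatal median was -0.64, and 0.60 without purified sham replicate 4. The choroid plexus median was -1.37, and -0.14 without purified sham replicate 3. The olfactory bulb median was 4.52, and 0.71 without purified injured replicate 3. The cause of the difference between DESeq2 and edgeR was not tested.

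With the replicate block, 0 genes were called for injury on purified diet (860 at an unadjusted p under 0.05) and 0 for the interaction. Deviations of purified injured and sham libraries with the same number correlated at -0.003, -0.03 and 0.079. Those with different numbers correlated at -0.078 to 0.085. So few pairs with such similar values cannot decide whether the replicate numbers pair the samples.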

Other observations

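Stress and housekeeping pathways stood near 0 on the purified diet. The 18 unfolded protein response genes had a median log2 fold change of -0.04, the 13 heat shock genes -0.09, the 18 NRF2 targets and antioxidants 0.02, the 15 p53 targets -0.04, the 18 glycolysis genes 0.01 and the 28 ribosomal protein genes -0.03. Single members still differed. Ccng1, a cyclin G gene induced by p53, was at 147, 161 and 137 CPM in sham and 84.9, 75.7 and 104 CPM in injured libraries (-0.75 ± 0.27). The stress gene Sesn2 was at 9.65, 9.83 and 8.88 CPM in sham and 10.9, 11.8 and 12.5 CPM in injured libraries (0.31 ± 0.14). Both had separate groups and neither passed the test. Of the p53 targets 2 lay wholly below sham and 1 wholly above. Wholly above sham were also 1 heat shock, 1 NRF2 and 1 glycolysis gene, and wholly below 1 unfolded protein response and 1 glycolysis gene. The 11 genes of the axonal injury response had a median of 0.51, with 8 above 0, 1 wholly above sham (Jun) and 1 wholly below (Gadd45a), and the median was 0.17 without injured replicate 4.

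The median log2 fold change was -0.036 among the 3850 genes with the lowest GC content and 0.037 among the 3845 with the highest. It was -0.03 among the 3846 genes with the shortest exons in sum and 0.008 among the 3844 with the longest. Genes annotated as TEC, models still to be experimentally checked, had a median of -0.157 over 743 genes, and antisense genes one of -0.102 over 695.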
